A study of Mus musculus with 36 samples.

Results

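The glycolysis and hypoxia response genes described here are 36 named genes, 21 of glucose uptake, glycolysis and lactate handling and 15 of the hypoxia response, out of 45232 genes in the files. They were chosen by name, with earlier results of these data known, and all 36 were among the 18176 genes tested. RNA sequencing of primary mouse prostate organoids, 3-dimensional epithelial cultures, compared 4 pCW constructs at days 0, 1 and 11 with 3 replicates each, 36 libraries in all. The EV group carried the vector without FOXA1 (labelled empty vehicle) and the WT group wild type FOXA1. The other groups carried Foxa1 FE255del or Foxa1 R219S, alterations of this forkhead transcription factor of the prostate. Every group came from sorted cells positive for DsRED, and FOXA1 was made as a 2A fusion with DsRED under doxycycline (500 ng/mL). The labels list doxycycline for every sample, while the names of the deposited tables mark the day 0 samples as without it. Mouse strain and age are not given in the sources used here. Triplicates were seeded from 1 sorted population per construct and handled separately from then on, so p-values measure the spread between these cultures and not between animals.

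Glycolysis splits glucose into pyruvate, and lactate dehydrogenase and a lactate exporter let the pathway run without oxygen. When oxygen is short, prolyl hydroxylases no longer mark the HIF-1α protein for degradation. HIF then raises transcription of glucose transporters, glycolytic enzymes, angiogenic factors and mitophagy genes by binding short ACGTG or GCGTG cores. Because the HIF-1α protein is controlled mainly by its stability, the mRNA of its gene is no measure of HIF activity. Many of these genes also answer to other inputs, and basal and luminal prostate epithelium differ in their use of them.

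Library totals ran from 61476938 to 102385337 counts. Foxa1 mRNA, which can include the mRNA of the transgene, averaged 226.7 CPM (counts scaled to a common library size) in EV at day 1 against 414.3 in WT, 320.2 in FE255del and 308.6 in R219S. At day 0 the 4 constructs averaged 228.7 to 256.5. By day 11 FE255del stood at a mean of 295, WT at 268.6, R219S at 268.5 and EV at 230.1. The WT libraries of that day (252.6 to 280.2) overlapped those of WT at day 0 (252.9 to 258.8). Days 1 and 11 were thus not compared at equal Foxa1 mRNA, and its part in the day 11 differences was not tested. Epithelial markers were high throughout (summed 3993 to 11740 CPM). Pbsn, the secretory marker of mature prostate lumen, was at 0 in every library, and seminal vesicle markers reached at most 0.03377. Leukocyte markers summed to 2.088 to 73.69 CPM, carried by Csf1r (at most 71.22) with the defining Ptprc at or below 0.3478.

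In EV at day 1 the highest levels per length of exon among the 36 genes were those of Ldha at 778.1 CPM per kb, Pkm at 730.7 and Aldoa at 710.3, which encode lactate dehydrogenase A, pyruvate kinase and aldolase A. The lowest were Pfkfb4 at 2.603 and Slc2a3, the glucose transporter GLUT3, at 0.02294. Slc2a3 never passed 0.4015 CPM in a library, so the cultures expressed GLUT1 (Slc2a1) and hardly any GLUT3. Between the lowest and the highest of the 12 group means the ratio was 7.61 for Egln3, 7.41 for the barely expressed Slc2a3, 5.45 for Slc16a3, 3.99 for Pfkfb4, 3.66 for Ddit4, 3.6 for Car9, 3.58 for P4ha2 and 3.06 for Pfkp. At the other end Pdk1, pyruvate dehydrogenase kinase, moved by 1.38 over all groups. Beside Slc2a3, the most variable members thus held 1 lactate exporter, 2 phosphofructokinase-related genes and 4 hypoxia genes, while the abundant enzymes of the pathway's lower part moved less. The heatmap of all libraries shows the level of each gene beside EV of the same day.

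**Figure D1:**
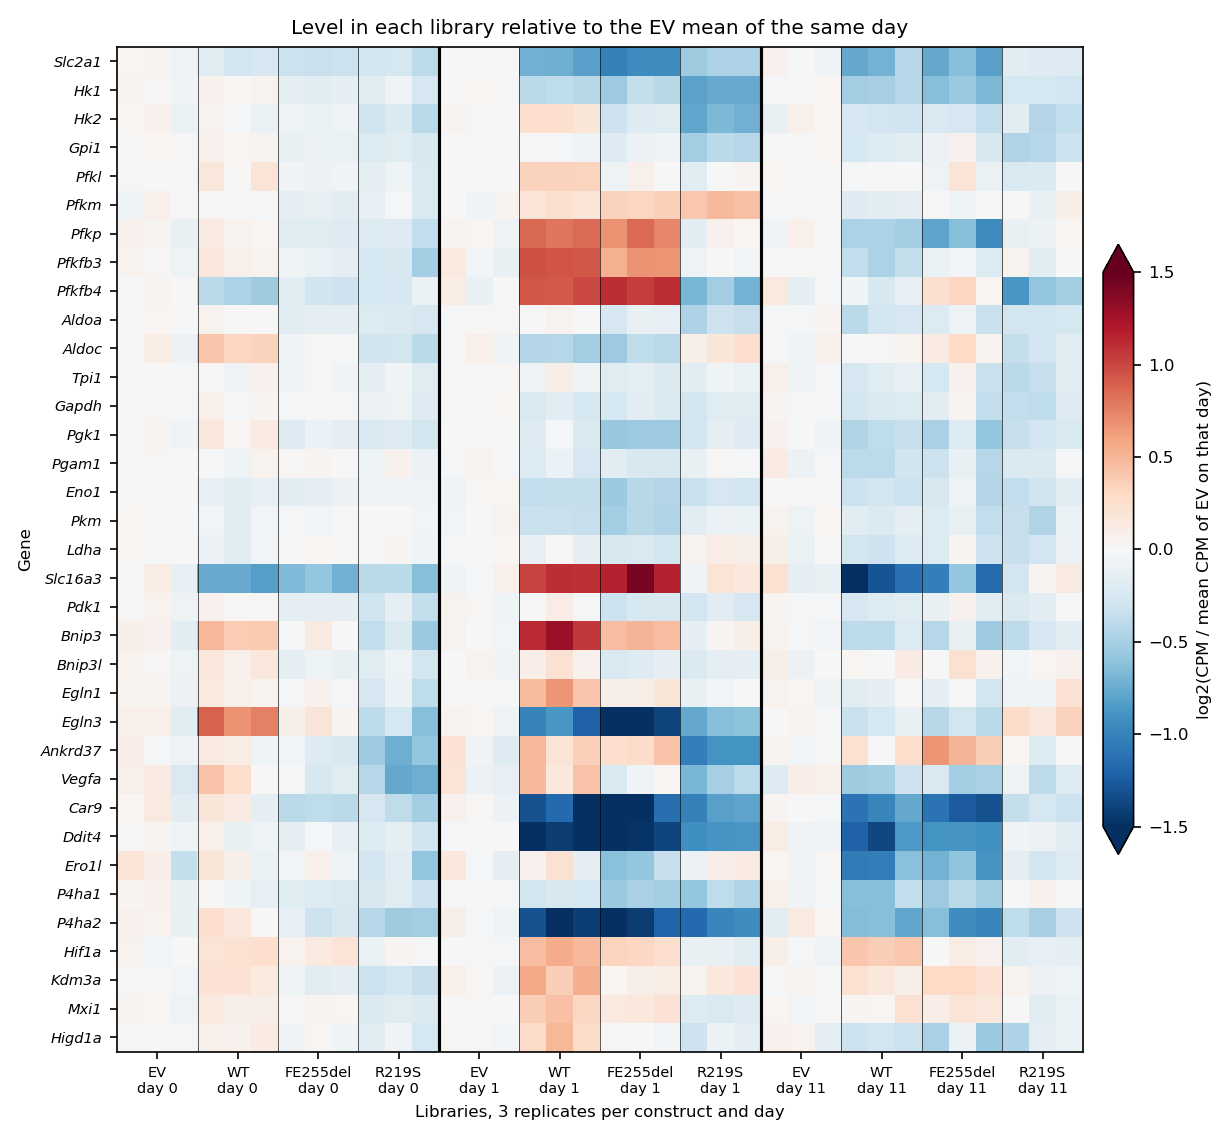
Level of 35 genes (rows) in each of 36 libraries (columns, 3 per construct and day) as log2 of the CPM over the mean CPM of EV on the same day; Slc2a3 is left out for its few counts. Red is above and blue below EV: Slc16a3, Pfkfb3, Pfkfb4, Pfkp and Bnip3 are red in WT and FE255del at day 1, and Car9, Ddit4, P4ha2 and Egln3 are blue there.

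At day 0 some of these genes already differed from EV, with the most calls in R219S. In R219S, 23 of the 36 genes were lower than in EV and 1 was higher (adjusted p below 0.05 in edgeR's quasi-likelihood test), where 6.92% of all tested genes were called lower and 13.2% higher. In FE255del 9 were lower and 1 higher, beside 9.72% and 11.1% of all genes. In WT 3 were lower and 5 higher, beside 12.8% and 9.9%, so the WT counts are near the shares of all genes. The median log2 fold change of the 36 genes was -0.23 in R219S, -0.10 in FE255del and 0.06 in WT, and that of all tested genes lay between 0 and 0.01. The FE255del count rests on single libraries. It was 10 with all of them, 6 without EV replicate 1, 3 without EV replicate 2, and 5 without FE255del replicate 2 or 3. In bulk RNA, fewer cells of a type and less RNA per cell cannot be told apart. Other markers differed at day 0 too. Of 15 mitosis genes, 13 were higher in R219S (summed 2936 to 3378 CPM against 2590 to 2724 in EV), 4 were higher in FE255del (2924 to 3022) and 5 lower in WT (2334 to 2507). Of 10 basal markers, 9 were lower in FE255del (summed 7127 to 7547 CPM against 9605 to 9758 in EV), 5 in WT (7388 to 7927) and 4 in R219S (9094 to 9533). The part of these markers in the day 0 differences was not tested.

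Slc16a3, the monocarboxylate transporter MCT4 that exports lactate, was the member that stood lowest in WT and FE255del before induction. It measured 65.1, 70.6 and 60.1 CPM in EV and 38.8, 38.8 and 37.0 in WT. FE255del had 41.3, 43.8 and 39.6 and R219S 49.2, 49.2 and 41.8. Every library of the 3 FOXA1 lines lay below the lowest of EV, and the log2 fold change was -0.77 ± 0.14 in WT (SE, adjusted p = 0.00014), -0.48 ± 0.14 in R219S (adjusted p = 0.016) and -0.65 ± 0.14 for FE255del (adjusted p = 0.0014). The R219S call was lost without EV replicate 2 or R219S replicate 3. Slc2a1, the basal glucose transporter GLUT1, was also lower in each line, at -0.33 ± 0.06 in FE255del (adjusted p = 6.3e-05), -0.31 in R219S (adjusted p = 0.0002) and -0.24 ± 0.06 in WT (adjusted p = 0.0014). In WT the hypoxia-induced Egln3 (0.78 ± 0.10, adjusted p = 1.5e-06), Bnip3 (0.43 ± 0.09, adjusted p = 0.00063) and Aldoc (0.36 ± 0.06, adjusted p = 1.6e-05) were higher than in EV. So was Hif1a (0.22 ± 0.04, adjusted p = 0.00018), while Pfkfb4 was lower (-0.47 ± 0.08, adjusted p = 5.8e-05).

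In R219S at day 0 the hypoxia genes made up 12 of the 23 lower calls, all of them against 0 higher, out of 15. Vegfa, the angiogenic growth factor, measured 91.3, 72.5 and 74.0 CPM there against 129.8, 134.4 and 104.9 in EV (-0.64 ± 0.13, adjusted p = 0.0013). Ankrd37, a HIF target of little known function, fell by 0.62 on the log2 scale (SE 0.09, adjusted p = 2.7e-05). P4ha2, a collagen prolyl hydroxylase, fell by 0.49 (SE 0.10, adjusted p = 0.0012) and Egln3 by 0.42 (SE 0.10, adjusted p = 0.0043). Bnip3 (-0.38, adjusted p = 0.0037) and Hk2 (-0.30, adjusted p = 0.00034) were lower as well. The Bnip3 and Egln3 calls were lost when the fit held only these 2 groups (adjusted p = 0.058 and 0.068). The only higher call, Slc2a3 (1.95 ± 0.61, adjusted p = 0.021), rested on 36 counts in R219S against 9 in EV and was lost without EV replicate 2 or R219S replicate 3. Hif1a (-0.02) and Ldha (-0.01) in R219S, and Hk2 (-0.02), Ldha (-0.10) and Vegfa (0.24) in WT, were not called. In FE255del, Hif1a was called at 0.14 ± 0.04 (adjusted p = 0.022) and Car9 at -0.40 ± 0.12 (adjusted p = 0.016). Hk2 (-0.08), Ldha (0.01), Vegfa (-0.15) and Bnip3 (0.04) were not called there. The FE255del calls of Car9, Hif1a and Pfkfb4 (-0.25, adjusted p = 0.029) were lost without EV replicate 2, and those of Hif1a and Pfkfb4 also without EV replicate 3 or FE255del replicate 2 or 3. Under total-count scaling the R219S split was 1 higher and 27 lower, and 47.2% rather than 65.6% of all called genes were higher.

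Against WT at day 0, FE255del had 17 of 36 genes lower and 0 higher, beside 11.2% and 15.7% of all genes, and R219S had 25 lower and 1 higher, beside 16% and 23.8%. The largest differences of R219S from WT were those of Egln3 (-1.20 ± 0.11, adjusted p = 5.3e-10), Vegfa (-0.88 ± 0.13, adjusted p = 7.5e-06), Bnip3 (-0.80 ± 0.09, adjusted p = 4.1e-08), Aldoc (-0.69 ± 0.06, adjusted p = 4.8e-11) and Ankrd37 (-0.68 ± 0.09, adjusted p = 7.3e-07). FE255del differed from WT most in Egln3 (-0.67 ± 0.10, adjusted p = 2.2e-05), Car9 (-0.45 ± 0.12, adjusted p = 0.0046), Vegfa (-0.39 ± 0.13, adjusted p = 0.03), Bnip3 (-0.39 ± 0.09, adjusted p = 0.0018) and Aldoc (-0.38 ± 0.06, adjusted p = 1.2e-05). Pfkfb4 was the only member higher in R219S than in WT (0.26 ± 0.08, adjusted p = 0.012), a call lost without WT replicate 3 or R219S replicate 3 and under total-count scaling. The FE255del count fell to 9 without WT replicate 1, and its Vegfa call was lost without WT replicate 1 or 2 or FE255del replicate 2 or 3. Under total-count scaling the splits were 0 higher and 20 lower for FE255del and 0 and 29 for R219S, where 44.9% rather than 58.3% and 43.4% rather than 59.7% of all called genes were higher.

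At day 1, Slc16a3, Pfkp, Pfkm, Pfkfb3, Pfkfb4 and Bnip3 were higher in WT and in FE255del than in EV. Slc2a1, Hk1, Ddit4, Car9, P4ha2 and Egln3 were lower in each of the 3 FOXA1 groups. Part of this was there at day 0, when Slc2a1 was lower in each line and Car9 in FE255del. P4ha2 (-0.49) and Egln3 (-0.42) were then lower in R219S, while Egln3 was higher in WT (0.78). At day 1 WT had 16 of the 36 genes higher and 13 lower than EV, beside 29.6% and 30.9% of all tested genes. FE255del had 9 higher and 20 lower, beside 25.5% and 27.7%, and R219S 3 higher and 20 lower, beside 23.2% and 25.3%. The median log2 fold changes of the 36 genes were 0.02, -0.20 and -0.21, and those of all genes -0.01, -0.03 and -0.04. These 3 comparisons share the EV libraries. Total-count scaling moved the all-gene median in WT to 0.10. The splits were then 18 higher and 10 lower in WT and 11 and 14 in FE255del, where 60.8% rather than 49% and 61% rather than 48% of all called genes were higher. Without EV replicate 3 or R219S replicate 3, 1 of the 3 higher calls in R219S was left.

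Other markers moved at day 1 as well. The 10 basal epithelial markers summed to 9684 to 10390 CPM in EV, 3528 to 3664 in WT, 2206 to 2386 in FE255del and 6000 to 6158 in R219S. All 10 of 10 fell in WT and in FE255del, with 7 lower and 1 higher in R219S. The 15 mitosis genes summed to 2656 to 2870 CPM in EV, 1334 to 1507 in WT, 1767 to 1872 in FE255del and 2023 to 2151 in R219S. Of these genes 15, 15 and 14 were lower in the 3 FOXA1 groups. Of 8 general epithelial markers 7 were lower in each FOXA1 group, with sums of 8912 to 9508 CPM in EV, 4782 to 4962 in WT, 3993 to 4146 in FE255del and 6244 to 6483 in R219S. Of 13 tested luminal markers, 9 were lower and 3 higher in WT, 8 and 4 in FE255del, and 11 and 2 in R219S. The luminal sums were 8106 to 8647 CPM in EV, 5772 to 5941 in WT, 7186 to 7410 in FE255del and 7402 to 7600 in R219S. Leukocyte markers were highest in WT (56.65 to 73.69) and FE255del (45.36 to 53.11). The part of these shifts in the changes of the glycolysis and hypoxia genes was not tested.

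Glucose enters through GLUT1, whose gene Slc2a1 lies at chr4:119108711-119137983 on the plus strand of GRCm38. It measured 279.7, 280.0 and 281.9 CPM in EV at day 1, 169.9, 168.6 and 160.0 in WT, 138.6, 146.1 and 146.1 in FE255del, and 193.2, 204.1 and 204.3 in R219S. No library of the 3 FOXA1 groups reached EV, and Slc2a1 fell by 0.76 on the log2 scale in WT (SE 0.06, adjusted p = 8.8e-14), by 0.97 in FE255del (SE 0.06, adjusted p = 2.2e-16) and by 0.48 in R219S (SE 0.06, adjusted p = 5.8e-09). The hexokinases trap glucose in the cell by phosphorylation. Hk1 fell by 0.40 in WT (adjusted p = 3.9e-10), by 0.44 in FE255del and, most, by 0.77 in R219S (SE 0.04, adjusted p = 7.2e-17). In R219S it measured 158.9, 164.3 and 164.6 CPM against 275.3, 282.6 and 273.5 in EV. Hk2, the inducible hexokinase at chr6:82725025-82774454 on the minus strand, parted the constructs. It measured 194.7, 186.7 and 184.4 CPM in EV, 224.8, 224.4 and 213.6 in WT, 152.4, 165.2 and 165.7 in FE255del, and 110.3, 118.2 and 114.9 in R219S. The 4 groups did not overlap, with -0.72 ± 0.06 in R219S (adjusted p = 1.3e-12), -0.23 ± 0.06 in FE255del (adjusted p = 0.0012) and an increase of 0.23 ± 0.06 in WT (adjusted p = 0.00095). The FE255del call was lost without FE255del replicate 1 and under total-count scaling.

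The committed step of glycolysis is that of phosphofructokinase, and PFKFB3 and PFKFB4 make and break its activator fructose 2,6-bisphosphate. Pfkp, the platelet-type subunit, measured 212.7, 211.3 and 195.2 CPM in EV, 373.6, 361.5 and 370.8 in WT, 329.9, 371.1 and 343.5 in FE255del and 182.8, 215.1 and 211.2 in R219S. WT and FE255del lay above every EV library (0.84 ± 0.06, adjusted p = 1.3e-13, and 0.75 ± 0.06, adjusted p = 2.6e-12), and R219S overlapped EV (-0.02). Pfkfb3 measured 77.3, 68.0 and 64.7 CPM in EV, 135.5, 134.3 and 133.4 in WT (0.94 ± 0.06, adjusted p = 4e-15), and 101.5, 111.5 and 110.6 in FE255del (0.62 ± 0.06, adjusted p = 1.7e-10). R219S, at 66.6, 70.5 and 67.8, overlapped EV (-0.04, not called). Pfkfb4 (chr9:108991778-109032228, plus strand) measured 13.7, 11.8 and 12.6 CPM in EV, 24.1, 24.0 and 25.1 in WT, 27.3, 26.0 and 27.4 in FE255del, and 7.89, 8.82 and 7.78 in R219S. It rose in WT (0.94 ± 0.08, adjusted p = 3.4e-12) and FE255del (1.08 ± 0.08, adjusted p = 1.5e-13) and fell in R219S (-0.64 ± 0.09, adjusted p = 8.9e-08). Pfkm, the muscle-type subunit, was the only phosphofructokinase gene called in R219S, at 42.1, 44.5 and 43.2 CPM against 31.7, 30.8 and 33.0 in EV (0.44 ± 0.05, adjusted p = 1.5e-09). It was also higher in WT (0.21) and FE255del (0.34). Pfkl, the liver-type subunit, was higher in WT (0.34, adjusted p = 9.6e-06) and not called in FE255del (0.00). Pfkm, Pfkp and Pfkfb3 each overlap another gene on the other strand. The same holds for 16 members in all, among them Slc2a1, Hk1, Hk2, Bnip3, Car9 and Hif1a. The strand setting of the counting is not given in the sources used here. Reads of the partner genes thus cannot be told apart for any of these members.

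Of the other steps from glucose to pyruvate, Eno1 fell by 0.36 in WT and 0.47 in FE255del and Pkm by 0.33 and 0.46. Pgk1, phosphoglycerate kinase, measured 833.7, 840.9 and 839.9 CPM in EV and 566.7, 576.7 and 574.3 in FE255del (-0.55), and fell by 0.14 in WT. Gapdh and Pgam1 fell by 0.22 and 0.18 in WT, where Aldoa (0.01), Tpi1 (-0.01) and Gpi1 (-0.04) were not called. In R219S, Gpi1 fell by 0.45 and Aldoa by 0.37. Aldoc, the aldolase of brain and some epithelia, fell in WT (-0.46, adjusted p = 3.2e-08) and was called higher in R219S (0.18 ± 0.06, adjusted p = 0.014), a call lost without EV replicate 1 or 3 or R219S replicate 3. The enzymes from Aldoa to Ldha have processed pseudogene copies in the mouse genome that can share their reads, which makes small changes of these genes uncertain.

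Ldha, which turns pyruvate into lactate, was close to EV beside Slc16a3, which carries lactate out. Ldha measured 2520, 2568 and 2639 CPM in EV, 2361, 2574 and 2344 in WT (-0.09, adjusted p = 0.24) and 2672, 2785 and 2738 in R219S (0.09, adjusted p = 0.28). FE255del, at 2173, 2200 and 2123, lay below EV (-0.25 ± 0.06, adjusted p = 0.0009). Slc16a3 (chr11:120948480-120960868, plus strand) measured 48.5, 49.5 and 52.8 CPM in EV, 101.2, 108.1 and 107.5 in WT, 111.7, 134.4 and 111.8 in FE255del and 48.2, 58.0 and 56.2 in R219S. WT and FE255del lay at 2.1-fold (log2 1.07 ± 0.14, adjusted p = 2e-07) and 2.37-fold (1.25 ± 0.14, adjusted p = 2e-08) of EV with no overlap, from a day 0 level below it. R219S overlapped EV (0.11, adjusted p = 0.57). Pdk1, which holds pyruvate back from the mitochondrion, was called lower in FE255del (-0.27) and not called in WT (0.03).

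**Figure D2:**
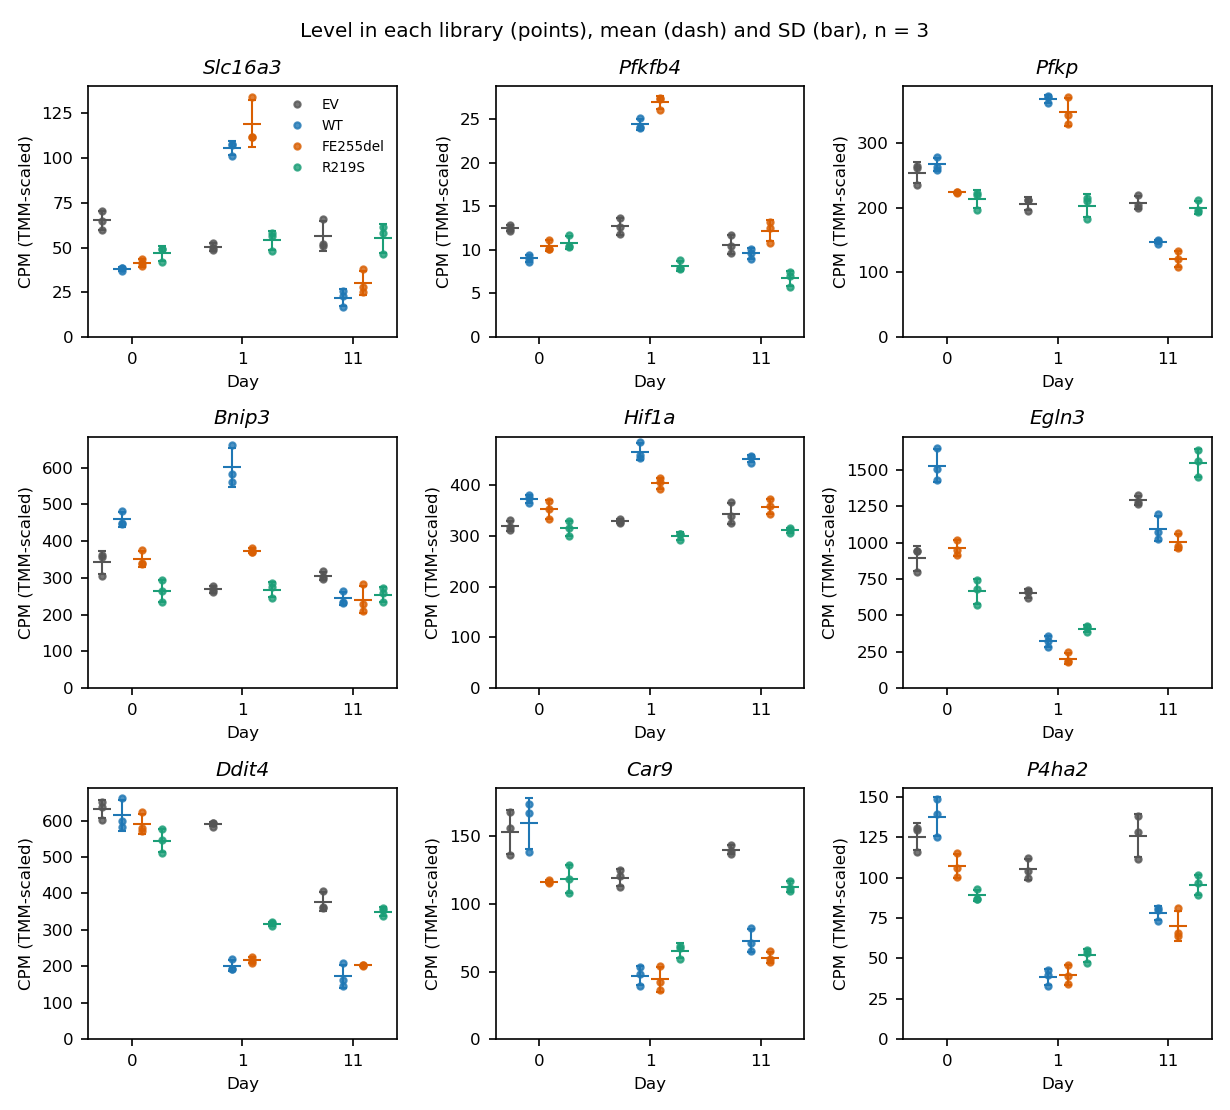
CPM of 9 genes in each library (points) by day, with the mean (dash) and SD (bar) of 3 replicates per construct. At day 1 Slc16a3 spans 101.2 to 134.4 CPM in WT and FE255del and 48.2 to 58.0 in EV and R219S, and at day 11 it spans 16.7 to 37.8 in WT and FE255del, below every EV and R219S library.

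The genes of HIF itself and of its prolyl hydroxylases moved in different directions at day 1. Hif1a (chr12:73901375-73947530, plus strand), the oxygen-regulated subunit, measured 326.7, 333.1 and 325.4 CPM in EV, 453.7, 484.7 and 458.2 in WT, 412.9, 405.9 and 391.3 in FE255del, and 303.8, 303.2 and 291.4 in R219S. It was higher in WT (0.50 ± 0.04, adjusted p = 2.6e-12) and FE255del (0.30 ± 0.04, adjusted p = 3.8e-07) without overlap. In R219S it was called lower (-0.13 ± 0.04, adjusted p = 0.01), which was lost without R219S replicate 3, under RLE or total-count scaling, without the filter on low counts and in DESeq2. Egln3 (chr12:54178981-54203860, minus strand) encodes the prolyl hydroxylase PHD3 and is itself a HIF target. It measured 674.9, 663.3 and 618.7 CPM in EV, 326.2, 354.9 and 282.4 in WT, 177.6, 183.7 and 248.5 in FE255del, and 382.3, 419.4 and 426.9 in R219S. The 4 groups did not overlap, and it fell by 1.02 in WT (SE 0.11, adjusted p = 1.4e-09), 1.68 in FE255del (SE 0.11, adjusted p = 6.9e-14) and 0.67 in R219S. Egln1, the gene of the main oxygen sensor PHD2, rose in WT (0.52 ± 0.07, adjusted p = 2.9e-07), at 263.2, 299.0 and 251.8 CPM against 190.5, 189.2 and 186.5 in EV, and was not called in FE255del (0.12).

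Among the HIF target genes, Bnip3, a mitophagy receptor at chr7:138890836-138909519 on the minus strand, measured 278.6, 266.7 and 260.4 CPM in EV, 583.4, 660.7 and 559.8 in WT, 370.2, 381.6 and 371.4 in FE255del and 244.4, 275.2 and 285.4 in R219S. WT stood at 2.24-fold of EV (1.16 ± 0.09, adjusted p = 3e-12), FE255del between them (0.48 ± 0.09, adjusted p = 4.3e-05), and R219S overlapped EV (0.00, adjusted p = 1). Ddit4, the mTORC1 inhibitor REDD1 (chr10:59949669-59951834, minus strand), went the other way, from 583.6, 592.1 and 594.1 CPM in EV to 192.6, 219.9 and 192.9 in WT, 210.2, 213.6 and 226.3 in FE255del and 311, 318.3 and 321.4 in R219S. The groups of WT and FE255del overlapped each other and none overlapped EV, with -1.55 ± 0.08 in WT (adjusted p = 1.9e-17), a like -1.44 ± 0.08 in FE255del (adjusted p = 1.5e-16) and a smaller -0.90 ± 0.08 in R219S (adjusted p = 1.4e-11). Car9, at chr4:43506966-43513729 on the plus strand, encodes the surface carbonic anhydrase widely used as a hypoxia marker. It measured 125.1, 120.7 and 112.5 CPM in EV, 48.3, 53.0 and 39.4 in WT, 36.4, 42.2 and 54.5 in FE255del and 59.1, 67.8 and 69.2 in R219S. Its log2 fold changes were -1.35 ± 0.12 (adjusted p = 1.4e-10), -1.43 ± 0.12 (adjusted p = 6.5e-11) and -0.87 ± 0.12 (adjusted p = 5.6e-07). P4ha2 (chr11:54100095-54131665, plus strand) fell likewise, from 112.0, 104.0 and 99.5 CPM in EV to 42.7, 33.0 and 39.7 in WT (2.74-fold lower, adjusted p = 1.5e-12), and 34.0, 39.3 and 45.9 in FE255del (2.65-fold lower, adjusted p = 4.7e-12). R219S had 47.1, 53.2 and 55.2 (2.03-fold lower, adjusted p = 3e-09).

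Ankrd37 was higher in WT (0.36, adjusted p = 0.0011) and FE255del (0.32) and fell in R219S to 16.0, 17.5 and 17.5 CPM, against 37.9, 31.4 and 28.6 in EV (-0.94 ± 0.10, adjusted p = 7.7e-10). The WT and EV libraries overlapped, and the gene overlaps others on the other strand, so its counts are uncertain. Vegfa measured 114.9, 93.8 and 91.6 CPM in EV, 139.8, 111.8 and 134.6 in WT (0.36 ± 0.13, adjusted p = 0.02) and 85.6, 96.5 and 102.3 in FE255del (-0.08, adjusted p = 0.66). In R219S it measured 62.4, 70.7 and 76.2 (-0.52 ± 0.13, adjusted p = 0.0019). The WT libraries overlapped EV and the call was lost without EV replicate 2 or 3 or WT replicate 1 or 3. R219S lay below EV, as it had at day 0 (-0.64). Kdm3a, a histone demethylase, was higher in WT (0.50) and, less, in R219S (0.15 ± 0.05, adjusted p = 0.015, with libraries that overlapped EV, lost without EV replicate 3 or R219S replicate 3). In WT Mxi1 (0.38), a Myc antagonist, Higd1a (0.36), a mitochondrial protein gene, and Bnip3l (0.14) were higher as well. P4ha1 fell in WT (-0.26), and Ero1l, an oxidase of the endoplasmic reticulum, fell in FE255del (-0.52) and was not called in WT (0.06).

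HIF binds ACGTG and GCGTG, so both words were searched on both strands in the 300 bases from 250 before to 50 after each RefSeq gene start (GRCm38.p6), where 33 of the 36 genes had an entry. At least 1 of them was in 31 of 33 (93.9%), against 12628 of 27025 genes (46.7%) over all entries and 7661 of 11956 tested genes with an entry (64.1%). ACGTG was in 25 of 33 (75.8%), against 21.8% and 27.6%. Some genes have several starts, and counted by window a core was in 40 of 51 (78.4%) against 43.8% over all windows. Genes with and without an increase at day 1 both held cores, as the 120 bases before the start show for a pair that rose in WT and FE255del (Slc16a3, Bnip3) and a pair that fell (Car9, P4ha2). Capitals mark the cores on either strand, read 5′ to 3′ along the gene's strand, and CACGTG holds ACGTG on both strands. The gene coordinates given above come from GENCODE M21, whose starts can differ from those of RefSeq. The Slc16a3 and P4ha2 stretches lie within these coordinates. A match is a description of the letters and not of binding.
Slc16a3, chr11:120948947-120949066, plus strand: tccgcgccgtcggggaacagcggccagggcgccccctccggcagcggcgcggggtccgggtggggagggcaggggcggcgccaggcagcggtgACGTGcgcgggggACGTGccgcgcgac
Bnip3, chr7:138909507-138909626, minus strand: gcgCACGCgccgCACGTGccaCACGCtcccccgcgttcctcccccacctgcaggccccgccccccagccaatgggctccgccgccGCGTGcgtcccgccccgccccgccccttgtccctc
Car9, chr4:43506906-43507025, plus strand: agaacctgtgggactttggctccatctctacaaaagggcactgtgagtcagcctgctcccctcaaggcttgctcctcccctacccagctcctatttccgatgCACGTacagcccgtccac
P4ha2, chr11:54100804-54100923, plus strand: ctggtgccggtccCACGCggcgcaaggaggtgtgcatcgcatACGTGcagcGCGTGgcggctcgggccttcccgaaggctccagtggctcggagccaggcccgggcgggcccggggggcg
Slc16a3 had 2 cores in its window, Bnip3 5, Car9 1 and P4ha2 4, 1 of these outside the stretch shown. Egln3, which fell as well and is not shown, had 1 core in its window and 0 in the 120 bases before its start. Since 31 of 33 genes held a core, these 4 chosen windows cannot tell whether cores go with the direction of change.

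Relative levels within families of related genes were compared per kb of exon. Egln3 made up 82.3% ± 0.52 (SD, n = 3) of the summed Egln1 and Egln3 level in EV at day 1, 75.2% ± 0.44 in R219S, 61.5% ± 1.2 in WT and 56.9% ± 3.5 in FE255del. At day 11 all 4 constructs were between 87.4% and 90.6%. Bnip3 made up 63.4% ± 0.86 of Bnip3 and Bnip3l in EV, 66% ± 1.2 in R219S, 73.3% ± 0.68 in FE255del and 77.9% ± 0.46 in WT. Hk2 made up 60.1% ± 0.51 of the hexokinase pair in WT against 49.3% ± 0.88 in EV, 53% ± 0.71 in FE255del and 50.1% ± 0.49 in R219S, since both genes fell together in R219S. Pfkp made up 25.9% ± 0.36 of phosphofructokinase in WT and 28.4% ± 0.37 in FE255del against 19.7% ± 0.89 in EV. At day 11 the order had turned, with 15.6% ± 0.35 and 12.8% ± 0.51 against 20.3% ± 0.98. P4ha2 fell from 35.7% ± 1 of the P4ha1 and P4ha2 sum in EV to 19.5% ± 2.3 in WT. These shares are descriptions without a test.

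**Figure D3:**
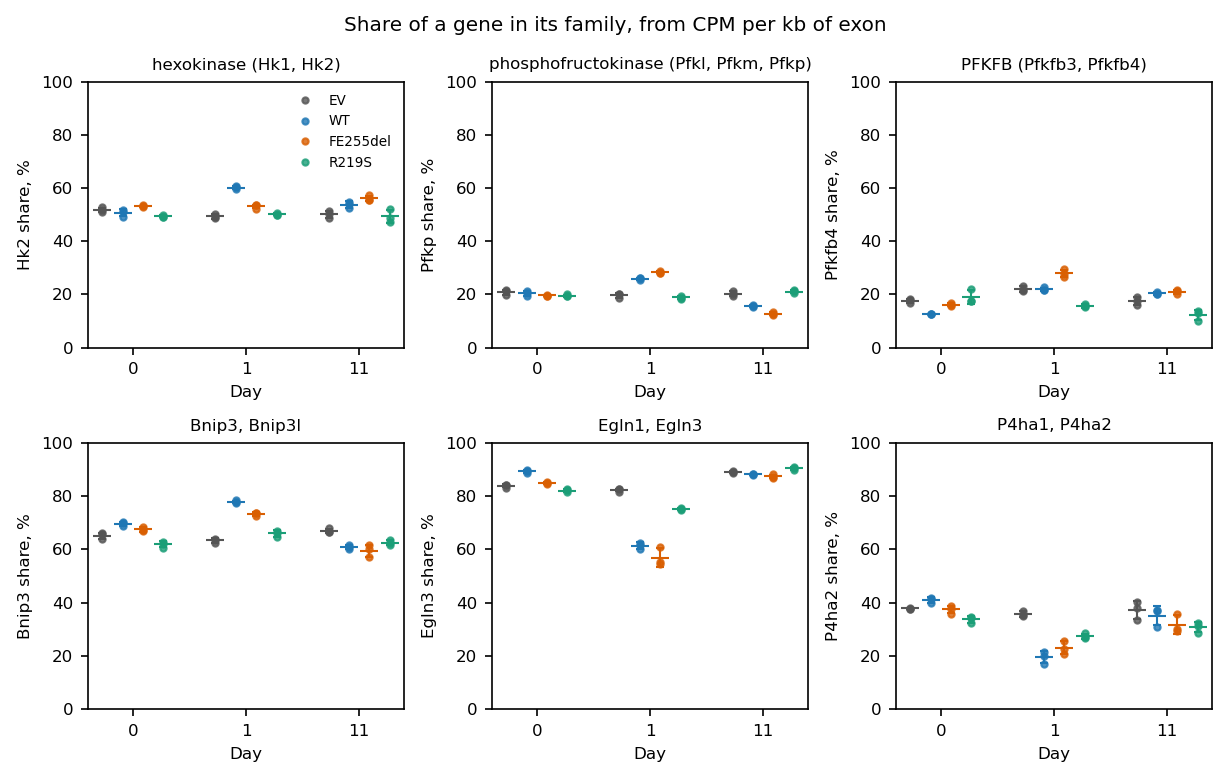
Share of 1 gene in the summed level of its family (percent, from CPM per kb of exon) by day, with each library as a point and the mean and SD of 3 replicates per construct. At day 1 the Egln3 share is 82.3% in EV, 61.5% in WT and 56.9% in FE255del, and the Bnip3 share is 63.4%, 77.9% and 73.3%.

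R219S and WT differed directly at day 1. Of the 36 genes, 20 were lower and 9 higher in R219S than in WT, beside 29.1% and 30.5% of all tested genes. The lower ones were led by Pfkfb4 (-1.58 ± 0.08, adjusted p = 1.1e-17), Ankrd37 (-1.30 ± 0.10, adjusted p = 2.9e-13), Bnip3 (-1.16 ± 0.09, adjusted p = 3.5e-12), Pfkfb3 (-0.98 ± 0.06, adjusted p = 1.8e-15) and Slc16a3 (-0.96 ± 0.14, adjusted p = 1.1e-06). The higher ones were led by genes that were low in WT, Ddit4 (0.65 ± 0.08, adjusted p = 9.9e-09), Aldoc (0.64 ± 0.06, adjusted p = 2.9e-11), Car9 (0.48 ± 0.12, adjusted p = 0.0011), P4ha2 (0.43 ± 0.11, adjusted p = 0.00097) and Egln3 (0.35 ± 0.10, adjusted p = 0.0049). FE255del had 20 genes lower and 1 higher than WT, beside 19.9% and 21.8% of all genes. Its leading differences from WT were Bnip3 (-0.68 ± 0.09, adjusted p = 3.4e-07), Egln3 (-0.66 ± 0.10, adjusted p = 7.3e-06), Ero1l (-0.57 ± 0.13, adjusted p = 0.00097), Hk2 (-0.46 ± 0.06, adjusted p = 7e-08) and Vegfa (-0.44 ± 0.13, adjusted p = 0.0084). The higher gene, Pfkm (0.13 ± 0.05, adjusted p = 0.028), lost its call without any 1 library other than WT replicate 2.

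By day 11 few of the genes were higher than in EV and many were lower. WT had 25 of the 36 genes lower than EV and 2 higher, beside 19.7% and 21% of all tested genes. Of its lower genes 17 were among the 21 of glycolysis. FE255del had 21 lower and 5 higher, beside 19.6% and 22.6%, and R219S 17 lower and 0 higher, beside 14.4% and 17.7%. The 5 higher genes of FE255del became 3 without EV replicate 2 or FE255del replicate 2. The medians were -0.27, -0.21 and -0.20, and those of all genes 0.01, 0.01 and 0.00. The basal markers then summed to 11890 to 12720 CPM in EV, 6099 to 7326 in WT, 6477 to 6624 in FE255del and 13650 to 15090 in R219S. The mitosis genes summed to 1187 to 1341, 1528 to 1631, 1528 to 1851 and 971.9 to 1242 CPM in the same order, and the part of both in the day 11 differences was not tested. Under total-count scaling R219S had 22 lower and 0 higher, with 42.6% rather than 55.2% of all called genes higher.

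Slc16a3 turned most. At day 11 it measured 66.1, 50.9 and 52.3 CPM in EV, 16.7, 23.1 and 25.9 in WT, 27.8, 37.8 and 25.4 in FE255del and 46.2, 57.9 and 61.8 in R219S. WT and FE255del lay below every EV library (-1.37 ± 0.15, adjusted p = 1.3e-08, and -0.90 ± 0.14, adjusted p = 8.9e-06), the reverse of day 1, and R219S again overlapped EV (-0.03, adjusted p = 0.91). WT and FE255del had been below every EV library at day 0 too (-0.77 and -0.65), and the day 11 values do not take out that difference. Pfkp turned as well, to 120.2, 133.0 and 107.8 CPM in FE255del against 199.7, 219.1 and 204.5 in EV (-0.79 ± 0.06, adjusted p = 2.3e-12). Pfkfb4 was low in R219S on both days, at 5.78, 7.01 and 7.42 CPM on day 11 against 11.7, 9.60 and 10.4 in EV (-0.65 ± 0.09, adjusted p = 1.7e-07). Its FE255del call (0.21, adjusted p = 0.047), with overlapping libraries, was lost without EV replicate 2 or 3 or FE255del replicate 1 or 2.

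Slc2a1 stayed low, at 213.3, 222.0 and 270.1 CPM in WT (-0.63 ± 0.06, adjusted p = 2.9e-11) and 213.3, 233.6 and 206.9 in FE255del (-0.74 ± 0.06, adjusted p = 5.5e-13) against 380.3, 362.5 and 346.5 in EV. In R219S it was 323.7, 318.7 and 317.9, below EV by less (-0.18 ± 0.06, adjusted p = 0.011), a call lost without EV replicate 1. Hk2 was lower in WT (-0.28, adjusted p = 0.00017), FE255del (-0.28, adjusted p = 0.00016) and R219S (-0.32 ± 0.06, adjusted p = 4.3e-05). Ldha was lower in WT (-0.27 ± 0.06, adjusted p = 0.00065) and R219S (-0.24 ± 0.06, adjusted p = 0.0027), with FE255del at -0.15 (adjusted p = 0.054). The Ldha libraries of R219S overlapped EV. After Pfkfb4, the called genes furthest below EV in R219S were Gpi1 (-0.40 ± 0.05, adjusted p = 3.1e-08), P4ha2 (-0.40 ± 0.10, adjusted p = 0.0034), Hk2 and Gapdh (-0.32 ± 0.06, adjusted p = 7e-05). P4ha2 (-0.49) and Hk2 (-0.30) had been lower than EV in R219S at day 0 too. So had Slc2a1 in each line, at -0.31 in R219S, -0.33 in FE255del and -0.24 in WT.

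Of the hypoxia targets at day 11, Ddit4 measured 407.2, 363.2 and 360.4 CPM in EV, 162.3, 146.6 and 207.8 in WT (-1.13 ± 0.08, adjusted p = 1.7e-13) and 202.4, 204.6 and 201.4 in FE255del (-0.89 ± 0.08, adjusted p = 2.9e-11). R219S had 360, 353.5 and 336.9 (-0.11, adjusted p = 0.32). Car9 measured 143.9, 139.5 and 137.3 CPM in EV, 65.3, 71.1 and 82.2 in WT (-0.95 ± 0.12, adjusted p = 2e-07), 64.9, 58.9 and 56.8 in FE255del (-1.22 ± 0.12, adjusted p = 2.4e-09), and 109.4, 117.2 and 111.9 in R219S (-0.31, adjusted p = 0.041). WT and FE255del lay far below EV in both genes, and R219S lay closer to it. Its Car9 libraries were below EV, while its highest Ddit4 library (360 CPM) nearly met the lowest of EV (360.4). Ero1l (-0.89 ± 0.13, adjusted p = 4.6e-06) and P4ha2 (-0.69 ± 0.10, adjusted p = 3.5e-06) fell in WT, and P4ha2 in FE255del (-0.84 ± 0.10, adjusted p = 1.3e-07). Bnip3, the gene that had risen most in WT, was lower than EV in WT (-0.33, adjusted p = 0.0042), FE255del (-0.35, adjusted p = 0.0023) and R219S (-0.27 ± 0.09, adjusted p = 0.024). The R219S call was lost without EV replicate 1 or R219S replicate 1 or 2, and Bnip3 had been lower there at day 0 too (-0.38). Vegfa fell in WT (-0.45 ± 0.13, adjusted p = 0.0073) and FE255del (-0.41 ± 0.13, adjusted p = 0.014), the latter lost without EV replicate 2 or 3 or FE255del replicate 2 or 3. It was not called in R219S (-0.22, adjusted p = 0.23).

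Hif1a stayed higher in WT at day 11, at 457.5, 443.2 and 454.7 CPM against 365.6, 338.4 and 325.1 in EV (0.40 ± 0.04, adjusted p = 2.1e-09). FE255del overlapped EV at 341.9, 371.4 and 358.6 (0.06, adjusted p = 0.3), and R219S lay below it at 304.6, 315.4 and 311.7 (-0.14 ± 0.04, adjusted p = 0.0094, lost without EV replicate 1). Kdm3a was higher in WT (0.16 ± 0.05, adjusted p = 0.011, lost without EV replicate 3 or WT replicate 1) and FE255del (0.27 ± 0.05, adjusted p = 3.4e-05). Ankrd37 was highest in FE255del, at 46.9, 42.2 and 38.2 CPM against 30.4, 28.7 and 29.7 in EV (0.52 ± 0.09, adjusted p = 2.7e-05), and Mxi1 (0.15, adjusted p = 0.0056) and Aldoc (0.16, adjusted p = 0.03) were called higher there. The Aldoc libraries overlapped EV, and the call was lost without EV replicate 1 or 2 or FE255del replicate 2.

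**Figure D4:**
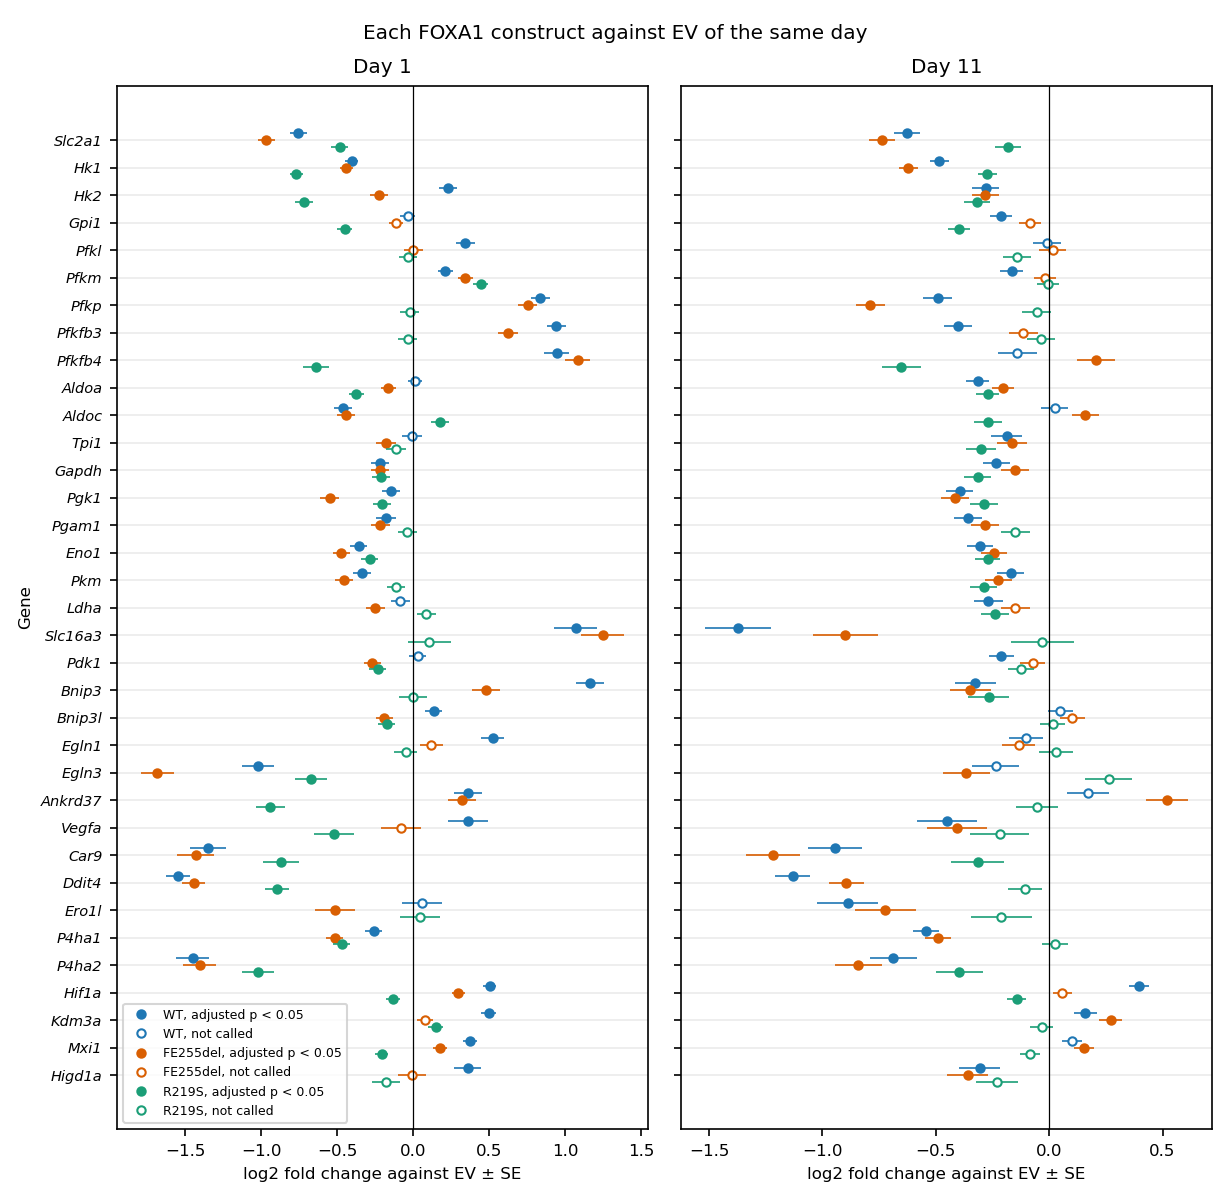
Log2 fold change (x axis, ± SE) of 35 genes (y axis) in WT, FE255del and R219S against EV at day 1 (left) and day 11 (right), filled where adjusted p was below 0.05; Slc2a3 is left out for its few counts. Slc16a3 lies at 1.07 in WT and 1.25 in FE255del at day 1 and at -1.37 and -0.90 at day 11, while Car9, Ddit4 and P4ha2 lie left of 0 on both days.

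Against WT at day 11, FE255del had 6 genes higher and 3 lower, beside 9.75% and 7.92% of all tested genes, and R219S 13 higher and 7 lower, beside 24.7% and 24.1%. R219S exceeded WT most in Slc16a3 (1.34 ± 0.15, adjusted p = 1.3e-08), Ddit4 (1.02 ± 0.08, adjusted p = 9e-13), Ero1l (0.68 ± 0.13, adjusted p = 0.00012), Car9 (0.63 ± 0.12, adjusted p = 5.9e-05) and P4ha1 (0.57 ± 0.06, adjusted p = 1.8e-10). It was lower in Hif1a (-0.54 ± 0.04, adjusted p = 9.4e-13), Pfkfb4 (-0.51 ± 0.09, adjusted p = 6.4e-06), Aldoc (-0.29 ± 0.06, adjusted p = 9.3e-05), Kdm3a (-0.19 ± 0.05, adjusted p = 0.0017) and Ankrd37 (-0.22 ± 0.09, adjusted p = 0.047, lost without WT replicate 1 or 3 or R219S replicate 2 or 3). Under total-count scaling its split was 10 higher and 12 lower, the all-gene median moved to -0.10, and 36.7% rather than 50.6% of all called genes were higher.

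FE255del was lower than WT at day 11 in Hif1a (-0.34 ± 0.04, adjusted p = 2.5e-07), Pfkp (-0.30 ± 0.06, adjusted p = 0.00077) and Hk1 (-0.14 ± 0.04, adjusted p = 0.023). It was higher in Slc16a3 (0.47 ± 0.15, adjusted p = 0.024), Ankrd37 (0.35 ± 0.09, adjusted p = 0.0069), Pfkfb4 (0.35 ± 0.08, adjusted p = 0.0028), Pfkfb3 (0.29 ± 0.06, adjusted p = 0.00093) and Ddit4 (0.24 ± 0.08, adjusted p = 0.03). Without FE255del replicate 1 the 9 calls became 5, 3 higher and 2 lower. The 6 higher calls became 3 without WT replicate 1 or 2 and 11 without FE255del replicate 3. Single libraries ended the calls of Hk1 (WT replicate 3, FE255del replicate 1 or 3), Slc16a3 (WT replicate 1, FE255del replicate 2), Ankrd37 (WT replicate 2, FE255del replicate 1) and Ddit4 (any other than WT replicate 3).

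EV organoids changed with culture time too. From day 0 to day 1, 12 genes fell and 0 rose, beside 1.17% and 0.259% of all tested genes, but the count dropped to between 2 and 5 without EV day 0 replicate 1 or 2 or any 1 of the day 1 libraries. The 2 largest were Ero1l (-0.68 ± 0.13, adjusted p = 0.0083), at 757.9, 707.4 and 516.4 CPM and then 459.7, 404.8 and 372.9, and Egln3 (-0.45 ± 0.10, adjusted p = 0.023). Both calls depended on single libraries, Ero1l on day 0 replicates 1 and 2 and day 1 replicates 2 and 3, and Egln3 on all but day 0 replicate 3. From day 0 to day 11, 21 genes fell and 4 rose, beside 24.6% and 23.1% of all genes, and 16 of the 21 were glycolysis genes. Without day 0 replicate 3 the split was 2 higher and 22 lower. Over the same time the mitosis genes went from a sum of 2590 to 2724 CPM to 1187 to 1341, with 15 of 15 lower, and the basal markers from 9605 to 9758 to 11890 to 12720, with 7 of 10 higher. The part of either in the change of the 36 genes was not tested. Eno1 fell from 914.6, 910.6 and 920.8 to 568.7, 573.8 and 553.6 CPM (-0.70 ± 0.06, adjusted p = 2.6e-12) and Ddit4 by 0.74 (SE 0.08, adjusted p = 1.7e-09). Egln3 rose from 945.2, 940.8 and 795.1 to 1281, 1326 and 1265 CPM (0.53 ± 0.10, adjusted p = 0.00011), and Slc2a3, with 9 and 32 counts, by 1.79 ± 0.62 (adjusted p = 0.016, lost without EV day 0 replicate 2 or day 11 replicate 3).

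Since the lines differed at day 0, the change of each construct since day 0 was also tested against the change of EV. At day 1, 12 genes changed more upward and 12 more downward in WT, beside 20.2% and 23.8% of all genes. In FE255del the counts were 9 and 14, beside 17.4% and 22.9%, and in R219S 7 and 10, beside 16.1% and 23.3%. At day 11 they were 2 and 22 in WT, beside 10.9% and 10.5%, and 4 and 12 in FE255del, beside 9.44% and 11.1%. R219S had 5 and 4, beside 12.4% and 14.7%. This R219S split rests on single libraries. It was 9 and 2 without EV day 0 replicate 3, 7 and 2 without R219S day 0 replicate 2 or R219S day 11 replicate 1, 6 and 2 without R219S day 0 replicate 1, 5 and 2 without EV day 0 replicate 1 or EV day 11 replicate 3, 6 and 1 without R219S day 11 replicate 2, and 5 and 7 without R219S day 11 replicate 3. At day 1 the 7 upward changes of R219S became 4 without EV day 0 replicate 2 or R219S day 0 replicate 3. The 2 upward changes of WT at day 11 became 0 without EV day 0 replicate 1 or 3, WT day 0 replicate 2, EV day 11 replicate 2 or 3, or WT day 11 replicate 3. Measured in this way Slc16a3 at day 1 stood at 1.84 ± 0.20 in WT (adjusted p = 1.4e-08) and 1.90 ± 0.20 in FE255del (adjusted p = 1.1e-08), above its difference from EV on that day. Under total-count scaling the day 1 splits were 14 and 7 in WT, 10 and 11 in FE255del and 9 and 6 in R219S, where 57.6% rather than 45.9%, 59.5% rather than 43.1% and 54.9% rather than 40.9% of all called genes were higher.

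Lists of neighbouring pathways outside the 36 were counted in the same way at day 1, when 29.6% of all tested genes were higher and 30.9% lower in WT, 25.5% and 27.7% in FE255del, and 23.2% and 25.3% in R219S. Of 40 tested other HIF targets, 16 rose and 16 fell in WT, 11 and 17 in FE255del and 18 and 13 in R219S. In FE255del the count of rises is near the share of all genes, and the count of falls is above it. Hilpda, a lipid droplet protein induced by hypoxia, rose from 14.6 CPM in EV to 92.6 in WT (2.66 ± 0.09, adjusted p = 3.1e-22) and 48.0 in FE255del (1.71 ± 0.09, adjusted p = 3e-17). In R219S Stc1, stanniocalcin, led at 34.5 against 3.51 CPM (3.30 ± 0.19, adjusted p = 4.2e-15). Of 21 isoforms and partners of the glycolysis genes, 13, 11 and 7 rose and 6, 5 and 7 fell in the same order. Ldhb, the lactate dehydrogenase subunit that favours pyruvate, rose from 9.91 to 65.0 CPM in WT (2.71 ± 0.07, adjusted p = 1.2e-26) and 28.8 in FE255del (1.54 ± 0.07, adjusted p = 5e-20). Slc16a1, the transporter MCT1, fell from 106.0 to 44.7 in WT (-1.24 ± 0.05, adjusted p = 5.4e-21). In FE255del Slc16a1 fell by 1.29 (SE 0.05, adjusted p = 3.8e-21), so in both groups the MCT1 gene fell on the day on which the MCT4 gene rose.

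Of 15 genes of oxygen sensing, 6, 4 and 7 rose and 1, 4 and 2 fell at day 1, and the FE255del counts are near the shares of all genes. Epas1, the gene of HIF-2α, measured 73.6 CPM in EV against 104.4 in WT (0.50 ± 0.06, adjusted p = 1.3e-08) and 169.3 in R219S (1.20 ± 0.06, adjusted p = 1.4e-17). At day 11 Epas1 was higher in WT (1.63 ± 0.06, adjusted p = 1.6e-20), FE255del (1.24 ± 0.06, adjusted p = 1.3e-17) and R219S (1.55 ± 0.06, adjusted p = 7.7e-20). Of 32 genes of pyruvate dehydrogenase and the citric acid cycle, 15 rose and 10 fell in WT at day 1, 20 and 3 in FE255del and 11 and 5 in R219S, beside the same shares. At day 11 the counts were 16 and 2 (21% and 19.7% of all genes), 22 and 1 (22.6% and 19.6%), and 5 and 9 (17.7% and 14.4%). The day 11 medians of that list were 0.10 in WT, 0.15 in FE255del and -0.03 in R219S, beside -0.27, -0.21 and -0.20 for the 36 genes. Of 11 genes of the serine and one-carbon branch, which leaves glycolysis at 3-phosphoglycerate, 0 rose and 8 fell in WT at day 1, led by Psat1, a transaminase of serine synthesis, from 386.5 to 149.0 CPM (-1.37 ± 0.05, adjusted p = 2.9e-21).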

How the data were processed

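Polyadenylated RNA of 36 libraries in 12 groups of 3 was sequenced after a TruSeq Stranded mRNA preparation, per the labels' protocols. The submitters' processing notes name STAR 2.4.2a, featureCounts 1.4.3 and mm10; annotation and strand setting are not given in the sources used here. The authors deposited an expected count per gene and library: 298311 values were not whole, none farther than 3.0e-09 from one, and were rounded. Of the values from 1 to 20, 69.7% were even, so both mates of a pair appear to be counted separately.

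Of 45232 genes, the filterByExpr function of edgeR 4.0.16 (R 4.3.3) kept 18176. TMM scaling (0.938 to 1.08) was followed by 1 robust quasi-likelihood fit of 12 group means, with 23 comparisons, Benjamini-Hochberg adjustment over all tested genes within each, and a threshold of 0.05. The standard error is the log2 fold change over the root of F. CPM are TMM-scaled, and levels per kb divide by the exon length in GENCODE M21, which also gave the coordinates. Replicates of a group differed by more than sampling noise (lowest chi-square per degree of freedom 4.02).

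The rule for named genes gave the 5 largest called differences in each direction against EV or WT, the 2 largest in time changes and changes since day 0, a panel of 6 (Hif1a, Slc2a1, Hk2, Ldha, Vegfa, Bnip3), and the 2 smallest p-values per direction of each related list. Other members were named for their role. The members and lists were chosen with earlier results of these data known. The script for the fits was tested on simulated data. Alternatives were RLE and total-count scaling, no filter and a stricter filter on low counts, only the groups compared, DESeq2 1.42.0, a replicate block and each library left out.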

Additional observations from a re-analysis of the deposited data

Results flagged for a closer look

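In each case here the change of a FOXA1 line since day 0 differed from the change of EV over the same days, tested as the difference of the 2 changes in edgeR's quasi-likelihood fit. Values are log2 differences of changes, with the standard error and the adjusted p. Comparisons with EV share its libraries.

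At day 1 the lactate exporter Slc16a3 and the PFKFB gene Pfkfb4 changed upward beside EV in WT (1.84 ± 0.20, adjusted p = 1.4e-08, and 1.41 ± 0.12, adjusted p = 3.6e-12) and in FE255del (1.90 ± 0.20, adjusted p = 1.1e-08, and 1.34 ± 0.12, adjusted p = 1.7e-11). Both had started below EV at day 0 in these lines, and Egln3 had started above it in WT (0.78). Downward, Egln3 (-1.80 ± 0.15, adjusted p = 3.8e-11) and P4ha2 (-1.59 ± 0.15, adjusted p = 5.7e-10) led in WT, and Egln3 (-1.79 ± 0.15, adjusted p = 6.2e-11) and Ddit4 (-1.35 ± 0.11, adjusted p = 7.1e-12) in FE255del. In R219S Slc16a3 (0.59 ± 0.20, adjusted p = 0.019) and Pfkm (0.56 ± 0.07, adjusted p = 3.7e-08) changed upward, and Slc2a3 (-2.52 ± 0.81, adjusted p = 0.012) and Ddit4 (-0.69 ± 0.11, adjusted p = 4.6e-06) downward. The R219S call of Slc16a3 was lost without EV day 0 replicate 2, R219S day 0 replicate 3 or R219S day 1 replicate 2, and that of Slc2a3 rests on few counts.

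At day 11 Ddit4 (-1.09 ± 0.11, adjusted p = 4.2e-09) and Egln3 (-1.01 ± 0.15, adjusted p = 6.6e-06) changed downward in WT, and Car9 (-0.82 ± 0.17, adjusted p = 0.00049) and Ddit4 (-0.80 ± 0.11, adjusted p = 9.1e-07) in FE255del. Pfkfb4 (0.33 ± 0.12, adjusted p = 0.047) and Hif1a (0.18 ± 0.06, adjusted p = 0.034) changed upward in WT, calls that most single libraries could end, and Ankrd37 (0.67 ± 0.13, adjusted p = 0.00022) and Pfkfb4 (0.46 ± 0.12, adjusted p = 0.0041) in FE255del. R219S went the other way in Egln3 (0.69 ± 0.15, adjusted p = 0.0007) and Pfkfb4 (-0.45 ± 0.12, adjusted p = 0.0046), with Ankrd37 at 0.57 ± 0.13 (adjusted p = 0.0014) and Pkm at -0.27 ± 0.08 (adjusted p = 0.014, lost without R219S day 11 replicate 2). Mean Ankrd37 was 27.18 CPM in R219S at day 0 and 28.54 at day 11, while EV went from 41.68 to 29.62. At day 0 Egln3 had started above EV in WT (0.78) and below it in R219S (-0.42).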

How the results depend on the processing

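Of 2599 alternative values for 187 differences of named genes, 2437 kept their direction and side of the threshold, 134 lost it, 4 gained it and 24 changed sign. The sign changes were all in values that were not called: Hk2 in WT at day 0 (total-count scaling 0.0052, leave-one-out -0.0709 to 0.0164), in FE255del at day 0 Ldha (total-count scaling -0.0025, stricter filter -0.0006, leave-one-out -0.001 to 0.0274) and Bnip3 (leave-one-out -0.0361 to 0.082), in R219S at day 0 Hif1a (leave-one-out -0.0577 to 0.0109) and Ldha (leave-one-out -0.0406 to 0.0098), at day 1 Ldha in WT (total-count scaling 0.0365), Vegfa in FE255del (total-count scaling 0.0215, leave-one-out -0.1388 to 0.0321) and Bnip3 in R219S (RLE scaling and DESeq2 0.0314, total-count scaling 0.0519, no filter 0.023, stricter filter 0.0094, only these groups 0.0401, leave-one-out -0.0482 to 0.0615).

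Fitting only the groups compared changed the number of the 36 genes called from 8 to 14 for WT and from 10 to 18 for FE255del against EV at day 0, from 9 to 4 for FE255del against WT at day 11, from 12 to 24 for EV from day 0 to 1 (DESeq2 19), and from 9 to 5 for the change of R219S by day 11. Leaving out 1 library gave 3 to 7 for FE255del and 9 to 16 (17 with all) for FE255del against WT at day 0, 5 to 13 for FE255del against WT at day 11, and 2 to 10 for EV from day 0 to 1. Over all genes, the calls went from 3777 to 2489 (FE255del) and 3654 to 2091 (R219S) at day 0 without EV replicate 2, from 5833 to 3817 (R219S) and 3213 to 1706 (FE255del against WT) at day 11 with only the groups compared, and for EV from day 0 to 1 from 260 to 171 (stricter filter), 658 (only these groups), 396 (DESeq2) and 62 to 180 (leave-one-out). With only these groups, R219S at day 0 had 0 genes higher and 27 lower, with 53.9% of all called genes higher. The cause was not tested.

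Replicate numbers did not pair the libraries: same-numbered correlations were all above 0.1 in 0 of 12 pairs of groups of 1 construct and in 1 of 54 of different constructs. With a replicate block the counts were 1 higher and 22 lower for R219S against EV at day 0, 16 and 13 for WT and 9 and 21 for FE255del at day 1, 1 and 18 for R219S at day 11, and 12 lower for EV from day 0 to 1 (9 with the block within construct). Depth limits Slc2a3, and the triplicates of 1 sorted population limit every p-value.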
